A study of Mus musculus with 24 samples.

Results

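The genes described here encode the subunits of the 26S proteasome, its activators and the proteins that assemble it. They were chosen by symbol: a mouse gene symbol starting with Psma to Psmg and followed by a digit, or Pomp, on array probes that carry exactly 1 gene symbol. The rule found 39 genes on 82 probes, among 6970 genes on 9684 such probes. Of the 39, 37 are subunit, activator or assembly genes on 80 probes. The other 2, Psmc3ip and Psme3ip1, fit by spelling alone and encode proteins named for binding a proteasome protein. They stand apart in the counts below, except where they are said to be included.

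Mouse embryos in culture were held at 43 °C for 15 min, put back at 37 °C and taken 1 h later, and their total RNA was compared with that of untreated embryos kept at 37 °C. Each of 24 arrays carried heat-shocked RNA in one channel and control RNA in the other, and the arrays came from 3 numbered treatments. Every treatment was hybridised to 2 slide types that carry different probes, on 4 arrays per slide type: 2 with heat-shocked RNA in channel 1 (called channel order 1 here) and 2 with it in channel 2 (channel order 2). The labels give no strain, age or number of embryos, and nothing in them says that the treatments were separate litters, so the p-values measure the spread between these 3 treatments only.

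The proteasome is the protease that degrades proteins tagged with ubiquitin. Its core is a stack of rings, the outer ones of alpha subunits (Psma genes) and the inner ones of beta subunits (Psmb genes), and a few beta subunits carry the proteolytic sites. A regulatory cap holds a base with a ring of ATPases (Psmc genes), which unfold the substrate, and a lid that removes ubiquitin (most Psmd genes). Psme genes encode other activators of the core, and Psmg genes and Pomp encode chaperones that build it. In heated cells the proteasome is known for removing proteins that have unfolded, and Nfe2l1 is known as the transcription factor that raises subunit genes together when proteasome activity is short.

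Values are the authors' deposited log ratios. Neither the base of the logarithm nor the numerator is stated, so a difference of 1 unit stands for 2-fold with base 2 and for 2.72-fold with the natural logarithm. Each array was centred on its median, arrays of channel order 2 had their sign turned, and the 4 arrays of a treatment were averaged to 1 value. A value above 0 means more RNA after heat shock than in the controls if channel 1 is the numerator. That direction is a convention, since the numerator is not stated. In addition, an array of treatment 2 and one of treatment 1, both of channel order 1 on slide type 2, correlated at −0.34 over all probes. With the sign turned, all counts below trade sides. Under the convention used, the heat response genes lay above 0 in both channel orders of all 3 treatments: 5 of 5 measured on slide type 1, led by Hsph1 (2.28), and 3 of 3 on slide type 2, led by Hspb1 (2.23). A gene is called where limma's adjusted p, by Benjamini-Hochberg over all genes of a slide type, was under 0.05. Errors after ± are limma's standard errors with n = 3 treatments.

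The values of a treatment correlated with those of the other treatments at 0.70 to 0.80 on slide type 1 and 0.82 to 0.90 on slide type 2. The 2 arrays of one treatment and channel order correlated at 0.57 to 0.80 and 0.58 to 0.94. Between the channel orders of one treatment, r was 0.15, 0.07 and 0.52 on slide type 1, and 0.32, −0.65 and −0.04 on slide type 2, in the order of the treatments. The opposed channel orders of treatment 2 on slide type 2 enter every value from that slide type. Ratios carry no level of a transcript, so the tissue could not be checked by the level of its markers, and in bulk RNA fewer cells of a type and less RNA per cell cannot be told apart.

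Upstream sequence was available for 30 of the 37 genes, as 32 promoters in RefSeq's annotation of GRCm38.p6, and the 250 bases before the start site were searched on both strands. Those of Psmb5, Psmc1 and Psmd9 are shown because they are the promoters of a catalytic core subunit, a base ATPase and the gene farthest above 0, and because Psmb5 and Psmd9 are the only genes searched with the antioxidant response element core, the site of Nfe2l1 and Nfe2l2. Capitals mark that core, TGACNNNGC, and the CCAAT box bound by NF-Y, and all other bases are in lower case. The sequences run 5′ to 3′ on the gene's strand, from chr14:54617996-54618245 (minus strand) for Psmb5, chr12:100109952-100110201 (plus strand) for Psmc1 and chr5:123227940-123228189 (plus strand) for Psmd9.
Psmb5: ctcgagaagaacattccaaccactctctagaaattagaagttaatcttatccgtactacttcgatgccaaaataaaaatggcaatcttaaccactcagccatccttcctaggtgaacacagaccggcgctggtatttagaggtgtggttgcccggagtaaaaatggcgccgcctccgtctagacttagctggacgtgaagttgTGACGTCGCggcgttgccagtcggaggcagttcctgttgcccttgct
Psmc1: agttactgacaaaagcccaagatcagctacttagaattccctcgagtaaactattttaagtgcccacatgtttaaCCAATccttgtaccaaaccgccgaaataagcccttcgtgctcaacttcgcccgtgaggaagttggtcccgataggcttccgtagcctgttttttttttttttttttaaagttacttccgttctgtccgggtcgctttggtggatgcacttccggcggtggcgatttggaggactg
Psmd9: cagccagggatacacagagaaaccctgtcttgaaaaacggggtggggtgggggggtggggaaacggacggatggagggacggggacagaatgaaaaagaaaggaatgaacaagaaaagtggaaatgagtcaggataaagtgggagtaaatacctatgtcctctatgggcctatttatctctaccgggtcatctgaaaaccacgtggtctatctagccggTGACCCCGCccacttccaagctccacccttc

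The match begins 47 bases before the start site in Psmb5 and 31 bases before it in Psmd9. Psmc1 has none, and its CCAAT box begins 175 bases before the start. Among the 32 promoters TGACNNNGC was in 6.25%, against 10.2% of 32851 promoters of the same length from all genes. CCAAT was in 34.4% of the 32, against 33.8% of all, and in 7 of the 12 core subunit promoters. The heat shock element cores were in 1 promoter each: GAANNTTC, in Psmb5, gave 3.12% against 6.69% of all promoters, and TTCNNGAA gave 3.12% against 7.17%. No motif searched was in a clearly larger share of these promoters than of all promoters, and a match here is a description of letters, not of a bound site.

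Slide type 2 carries 18 of the subunit and assembly genes, of which 13 were called below 0 and 1, Psmg4, was called above 0. Over all 4075 genes there, 31.9% were called below 0 and 18.5% above 0, so the 13 of 18 (72.2%) stand beside a high background. The median of the 18 genes was −0.25, against −0.049 over all genes. In all 3 treatments 17 of the 18 lay below 0, as did 43.6% of all genes. The means of the same number, 17 of 18, were below 0 without centring, as were 44.1% of all genes. Limma then called none (3 had an unadjusted p under 0.05 below 0 and 1 above, beside 6.36% and 10.8% of all genes), and with arrays scaled to a common spread it called 4 below 0 (13.2% of all genes). The lowest member lay at −0.40, small in size beside the heat response genes of the same slides.

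The lowest value was in the alpha ring. Psma5 read −0.48, −0.42 and −0.31 in treatments 1, 2 and 3, with a mean of −0.40 ± 0.059 (limma adjusted p = 6.02e-05). Psma2 read −0.37, −0.48 and −0.33, with a mean of −0.39 ± 0.058 (limma adjusted p = 6.43e-05), and Psma4 −0.26, −0.35 and −0.28, with a mean of −0.29 ± 0.057 (limma adjusted p = 0.000642). All 3 alpha subunits were below 0 in each treatment. Psma3, the remaining alpha subunit, was nearer 0 at −0.061, −0.23 and −0.12 and was not called (mean −0.14 ± 0.059, limma adjusted p = 0.0622).

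Psmb5, which carries the chymotrypsin-like site of the core, was the only beta subunit on slide type 2. It read −0.37, −0.37 and −0.13, with a mean of −0.29 ± 0.063 (limma adjusted p = 0.00154), and its 2 probes gave −0.30 and −0.28. The value of treatment 3 was closer to 0 than the other two. Psmc1, the only base ATPase there, read −0.41, −0.50 and −0.29, with a mean of −0.40 ± 0.060 (limma adjusted p = 7.4e-05). Its 2 probes gave −0.44 and −0.35, so with both orders averaged the probes of each gene lay on one side. In order 1 alone the Psmb5 probes disagreed, at 0.23 and −0.19, and in order 2 they read −0.78 and −0.42.

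Among the 8 Psmd genes 5 were called below 0. Psmd7, a lid subunit of the dimer that holds the deubiquitinase, read −0.26, −0.35 and −0.23 (mean −0.28 ± 0.057, limma adjusted p = 0.00105). Psmd4, a ubiquitin receptor of the cap, read −0.30, −0.43 and −0.11 (mean −0.28 ± 0.065, limma adjusted p = 0.00257). Psmd2, the scaffold of the base that docks ubiquitin shuttles, read −0.34, −0.28 and −0.15 (mean −0.26 ± 0.060, limma adjusted p = 0.00252). The base and the lid were thus both represented among the called genes. The lid subunit Psmd6 read −0.21, −0.22 and −0.13 (mean −0.19 ± 0.057, limma adjusted p = 0.0134), and the lid subunit Psmd11 −0.13, −0.19 and −0.11 (mean −0.14 ± 0.057, limma adjusted p = 0.0454). Psmd11 lost its call without any 1 of the 3 treatments, with limma adjusted p from 0.0861 to 0.166, and Psmd6 without treatment 1 (limma adjusted p = 0.102). The lid subunit Psmd8 (−0.12) and the base chaperones Psmd5 (−0.091) and Psmd10 (−0.13) were not called (limma adjusted p = 0.0956, 0.193 and 0.0787).

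Both activators on slide type 2 were called below 0. Psme4, the large monomeric activator PA200, read −0.37, −0.27 and −0.31 (mean −0.32 ± 0.057, limma adjusted p = 0.000354). Psme1, the alpha chain of the PA28 activator, read −0.16, −0.39 and −0.13 (mean −0.23 ± 0.063, limma adjusted p = 0.00773). Of the 2 core assembly chaperones there, Psmg1 read −0.26, −0.33 and −0.13 (mean −0.24 ± 0.060, limma adjusted p = 0.00382), and Psmg4 lay on the opposite side at 0.32, 0.13 and 0.18 (mean 0.21 ± 0.059, limma adjusted p = 0.00816). The assembly chaperones were the only class there with a gene on each side of 0. The genes that fit by spelling alone were not called, at −0.14 for Psmc3ip and −0.073 for Psme3ip1 (limma adjusted p = 0.0675 and 0.282).

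**Figure D1:**
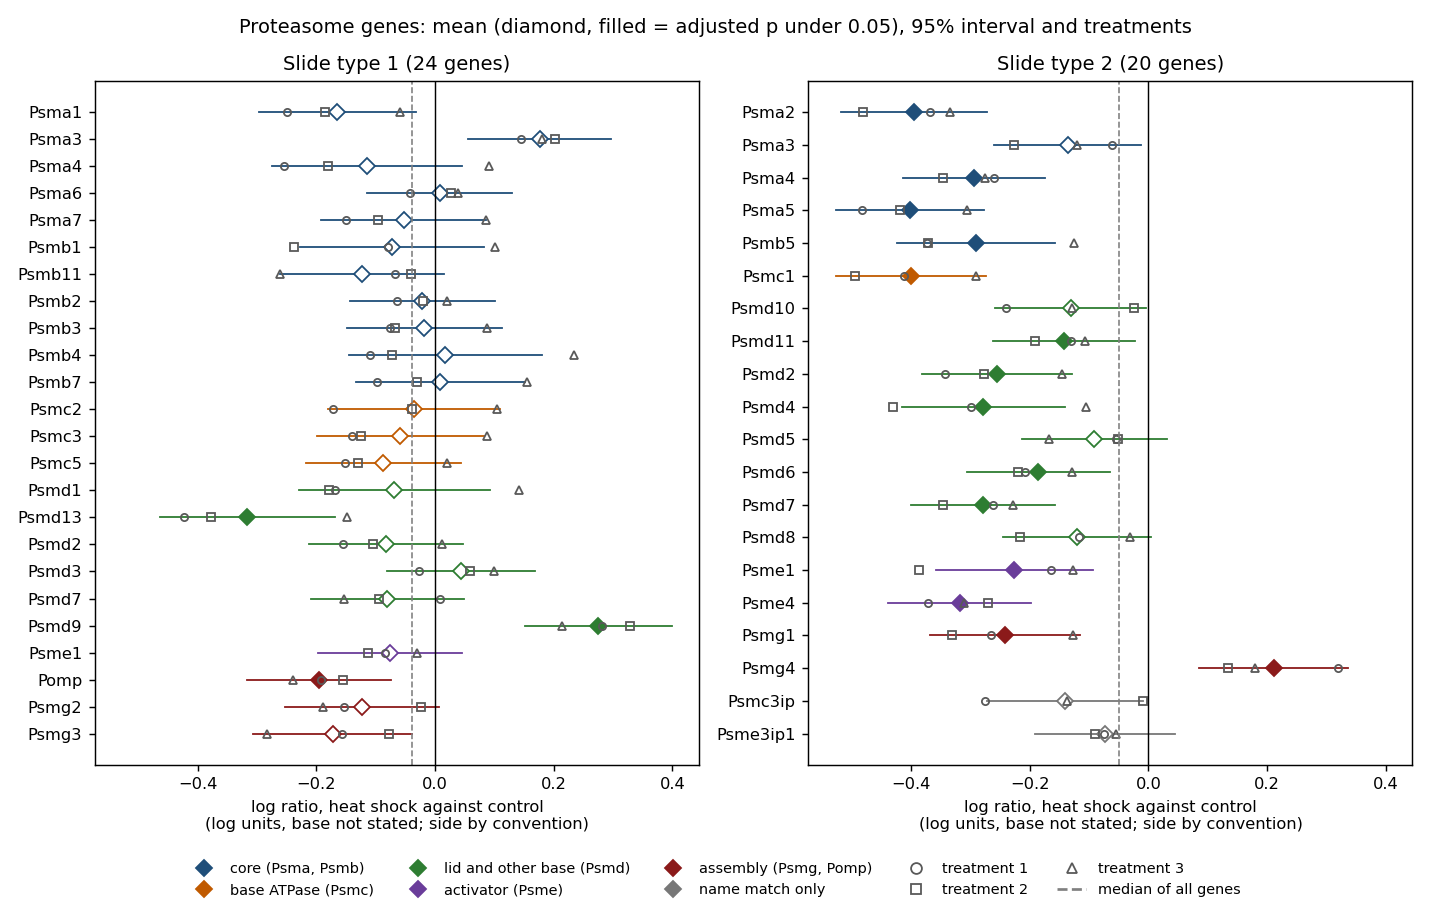
Log ratio of heat shock against control (horizontal axis, log units of unstated base) for each gene on slide types 1 and 2. Diamonds are means of 3 treatments with their 95% intervals, filled where the limma adjusted p was under 0.05, small symbols are the treatments and the dashed line is the median of all genes. On slide type 2 all subunit and assembly genes but Psmg4 have means below 0, and on slide type 1 the means lie between −0.32 and 0.27; under the opposite sign convention both panels would be mirrored.

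The channel orders on slide type 2 did not give the same picture. With heat-shocked RNA in channel 1 the median of the 18 genes was 0.012, and with it in channel 2 it was −0.51 (all genes −0.035 and −0.12). In treatment 2 the channel orders had opposite signs for 18 of 18 genes, as they did for 84.1% of all genes, with medians of 0.33 in order 1 and −0.997 in order 2. The mean of that treatment was therefore the remainder of opposed values, and the order 2 value was the larger for all of these genes but Psmd10. Without treatment 2, limma called 13 of the 18 genes below 0 and 1 above 0, beside 30.1% and 24.1% of all genes. The part of treatment 2 in the calls was not tested beyond the fits given here.

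Psma5 shows the pattern array by array. In channel order 1 its arrays read −0.43 and −0.54 in treatment 1, 0.53 and 0.34 in treatment 2, and −0.049 and −0.069 in treatment 3. In channel order 2 they read −0.64 and −0.33, −1.29 and −1.25, and −0.56 and −0.55. All 6 arrays of order 2 lay below 0, and 4 of the 6 of order 1. Psmc1 ran likewise: −0.46 and −0.68, 0.37 and 0.17, and −0.031 and −0.11 in order 1, and −0.44 and −0.075, −1.28 and −1.25, and −0.52 and −0.51 in order 2. Psmb5 had 4 of its 6 order 1 arrays above 0, at 0.41 and 0.25 in treatment 2 and 0.17 and 0.12 in treatment 3, and all 6 of order 2 below 0, from −1.09 to −0.19.

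In treatment 1 both channel orders lay below 0 for 13 of the 18 genes (37.3% of all genes), and in treatment 3 for 9 of 18 (29.3% of all genes). Treatment 1 had order 1 and order 2 values of −0.48 and −0.48 for Psma5, −0.41 and −0.32 for Psma2, −0.57 and −0.26 for Psmc1 and −0.41 and −0.34 for Psmb5. In that treatment the channel orders of these 4 genes lay on one side. Treatment 3 had −0.059 and −0.55 for Psma5, and 0.15 and −0.40 for Psmb5. Psme4 had −0.52 and −0.22 in treatment 1 and −0.31 and −0.31 in treatment 3, with both orders below 0 in each.

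Neither channel order alone called any of the 18 genes with limma. In order 1 none had an unadjusted p under 0.05 either (3.21% of all genes did below and 4.61% above 0), and over all genes 1.08% were called above and 0.147% below 0. In order 2, 12 of the 18 had an unadjusted p under 0.05, all 12 below 0, beside 19.5% of all genes below and 13.1% above 0 at that p. Over all genes limma called 0.319% above and 0.27% below 0 in order 2. The difference between the orders within a treatment was called by limma for 0% of all genes above 0 and 0% below 0, where 114 and 243 genes had an unadjusted p under 0.05. Among the 18 genes only Psmd2 did, with a difference of 0.29 in treatment 1, 2.12 in treatment 2 and 0.71 in treatment 3 (mean 1.04, 95% interval 0.19 to 1.90, limma adjusted p = 0.557). Intervals of this width, reaching from −0.11 to 1.57 for Psma5, leave the order difference of single genes poorly determined on slide type 2. Leaving out treatment 1, limma called Psmd2 and 12.8% of all genes for this difference. Without centring, order 1 was higher for 0.0245% of all genes on slide type 2, so the side of the order difference there rests on the centring.

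**Figure D2:**
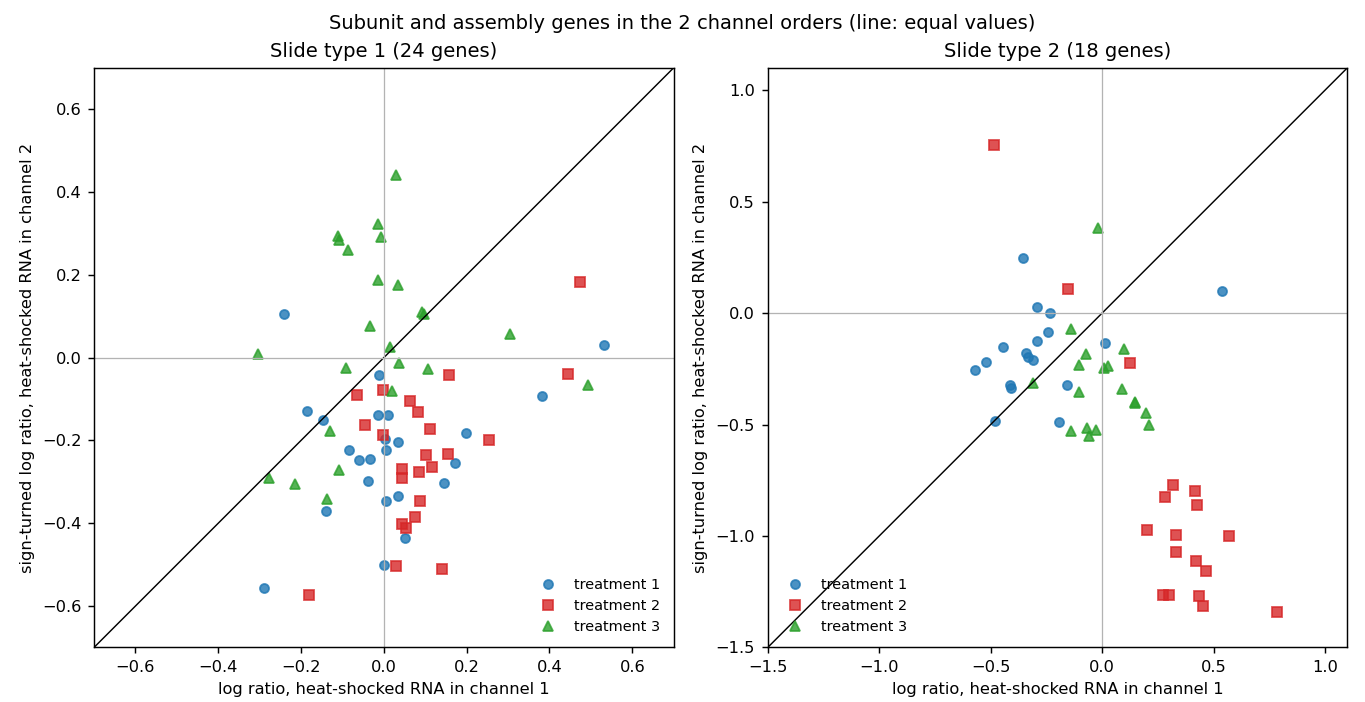
Log ratio with heat-shocked RNA in channel 1 (horizontal axis) against the sign-turned log ratio with it in channel 2 (vertical axis), in log units, for subunit and assembly genes, 1 point per gene and treatment. The points of treatment 2 on slide type 2 all lie in the quadrants of opposite sign, while 13 of the 18 points of treatment 1 are below 0 on both axes.

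The genes moved together over the 12 arrays of slide type 2. The median correlation between pairs of the 18 genes was 0.93, and Psma2, Psmc1 and Psmd8 each correlated at 0.99 with the median of the others. These arrays share RNA within a treatment, and much of their spread is that of treatment 2, so the correlation is a description. The same correlation was not computed over all genes, of which 84.1% had opposed orders in treatment 2. Whether it is particular to these genes was therefore not tested. Psmd5 (0.34), Psmd10 (−0.51) and Psmg4 (−0.87) did not follow the others. Psmd5 and Psmd10, which are base chaperones and not part of the finished particle, were also among the 4 genes not called.

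Psmg4, the partner of Psmg3 in an assembly chaperone, was printed on slide type 2 as 25 spots in 2 runs, 12 and 13 spots long. Its arrays read 0.58 and 0.50, −0.72 and −0.24, and −0.31 and 0.28 in channel order 1 of treatments 1, 2 and 3. In channel order 2 they read 0.15 and 0.051, 0.85 and 0.65, and 0.62 and 0.14. It was thus above 0 on 9 of 12 arrays and mirrored the core subunits in treatment 2. The 25 spots, averaged over arrays, had a mean of 0.21 and an SD of 0.090, from 0.058 to 0.47, with 0.23 for the first run and 0.20 for the second. Within a channel order the runs were less alike. First-run spots ran from −0.57 to 0.53 in order 1, most below 0, and from 0.33 to 0.88 in order 2. Second-run spots ran from −0.060 to 0.38 in order 1, most above 0, and from −0.15 to 0.43 in order 2. Within one array the SD between spots was 0.21 to 0.54. It was smaller than the mean of some arrays, as in treatment 1, order 1, with the suffix (0.21 beside 0.50). It was larger than that of others, as in treatment 1, order 2, with the suffix (0.36 beside 0.051). The call was lost without treatment 1 (0.16, limma adjusted p = 0.142).

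**Figure D3:**
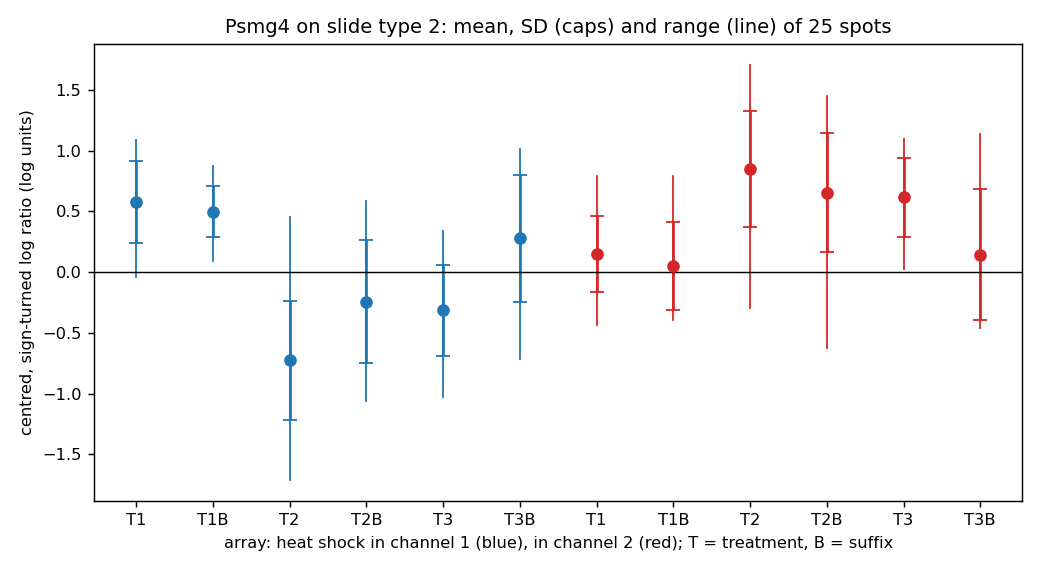
Centred, sign-turned log ratio of Psmg4 on each of the 12 arrays of slide type 2 (vertical axis, log units), with the mean, SD and full range of its 25 spots, and T for treatment and B for the suffix in the slide code. In treatment 2 the means lie at −0.72 and −0.24 in channel order 1 and at 0.85 and 0.65 in channel order 2.

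Slide type 1 carries 24 subunit and assembly genes, and most differed little from 0. Limma called 2 below 0, Psmd13 and Pomp, and 1 above 0, Psmd9. Over all 3838 genes 5.65% were called below and 5.73% above 0, and the members' 2 of 24 (8.33%) and 1 of 24 are near that. Their median was −0.070, against −0.038 over all genes, and both lay above 0 without centring, at 0.23 and 0.27. The 95% intervals of the 21 uncalled genes lay between −0.31 and 0.30. Those bounds are the outermost ends over these genes and not a limit for a single gene. The median half-width of the intervals over the 24 genes was 0.13. Among uncalled genes, the intervals of Psma1, Psma3 and Psmg3, which are not adjusted for the number of genes, left out 0.

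Psmd9, a chaperone in the assembly of the base, read 0.28, 0.33 and 0.21 in treatments 1 to 3, with a mean of 0.27 ± 0.055 (limma adjusted p = 0.0112). All 3 treatments were above 0, but the channel orders were far apart, at 0.50 in order 1 and 0.050 in order 2. The 6 arrays of order 1 ran from 0.36 to 0.65 and the 6 of order 2 from −0.13 to 0.28, so the 2 sets did not overlap. Its call was lost without treatment 1 (limma adjusted p = 0.0916) and without treatment 2 (limma adjusted p = 0.0667).

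Psmd13, a lid subunit, read −0.42, −0.38 and −0.15, with a mean of −0.32 ± 0.066 (limma adjusted p = 0.0133). In treatments 1 and 2 its order 2 arrays read −0.55, −0.56, −0.57 and −0.57, while in treatment 3 they were −0.047 and 0.063. All 6 arrays of order 1 lay below 0, from −0.38 to −0.15. Treatment 3 therefore held the value nearest 0, and the call was lost without treatment 1 (−0.26, limma adjusted p = 0.132). Without centring the mean was −0.012 (limma adjusted p = 0.943).

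Pomp, which joins the precursors of the core particle and is the first substrate of the new particle, read −0.19, −0.16 and −0.24. Its mean was −0.20 ± 0.054 (limma adjusted p = 0.0472), but 0.11 without centring. All 6 arrays of order 2 lay below 0, from −0.52 to −0.23, whereas order 1 ran from −0.18 to 0.19 with a mean of −0.0036. Leaving out any 1 treatment ended the call, with limma adjusted p from 0.0911 to 0.202.

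The 11 core subunits on slide type 1 had a median of −0.021 and none was called (unadjusted limma p was under 0.05 for Psma1 and Psma3). Psma3 was the highest, at 0.14, 0.20 and 0.18 (mean 0.18 ± 0.054, limma adjusted p = 0.0656). Psma1 was the lowest, at −0.25, −0.19 and −0.059 (mean −0.16 ± 0.059, limma adjusted p = 0.117). The catalytic subunit Psmb7, which carries the trypsin-like site, read −0.097, −0.031 and 0.16 (mean 0.0090 ± 0.063, limma adjusted p = 0.959). The others ran from −0.12 for Psmb11, the thymus form of the catalytic subunit, to 0.017 for Psmb4, with Psma4, Psma6, Psma7, Psmb1, Psmb2 and Psmb3 between them. The remaining catalytic genes Psmb6, Psmb8, Psmb9 and Psmb10 are not analysed here.

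The base ATPases Psmc2, Psmc3 and Psmc5 read −0.035, −0.059 and −0.087 and none was called (limma adjusted p = 0.804, 0.638 and 0.416). Their 3, 2 and 3 probes lay between −0.051 and −0.018, at −0.059 and −0.058, and between −0.12 and −0.052. Of the 6 Psmd genes the 4 uncalled ones were Psmd1 (−0.068), Psmd2 (−0.082), Psmd3 (0.044) and Psmd7 (−0.080). The activator Psme1 read −0.076, and the assembly chaperones Psmg2 and Psmg3 read −0.12 and −0.17, with neither called (limma adjusted p = 0.444, 0.234 and 0.105). With each array centred, the core assembly genes Pomp, Psmg2 and Psmg3 were below 0 in all 3 treatments, as were 30.95% of all genes. Psmd9, the base assembly chaperone counted with the Psmd genes, was above 0 in all 3, as were 513 of all 3838 genes.

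The channel orders differed on slide type 1 as well. In the mean over treatments, order 1 was higher than order 2 for 22 of the 24 genes and for 65% of all genes. On slide type 2 it was higher for 16 of the 18 genes and for 60.6% of all genes. By treatment on slide type 1, the median difference of the 24 genes was 0.23, 0.35 and −0.015 (all genes 0.13, 0.14 and 0.055), so treatment 3 did not share the direction. The difference was called by limma for Psmd9 (0.50, 0.29 and 0.56 in treatments 1 to 3, mean 0.45, adjusted p = 0.0310), Psma3 (0.48, 0.48 and 0.25, mean 0.40, adjusted p = 0.0400) and Pomp (0.49, 0.46 and 0.20, mean 0.38, adjusted p = 0.0490). Over all genes 8.16% were called higher in order 1 and 7.66% higher in order 2. The 3 calls were lost without treatment 1, those of Psma3 and Pomp also without treatment 2, and without treatment 3 limma called 10 of the 24 genes and 35% of all genes. Psmb11 and Psmg3 were the genes with order 1 lower, by −0.060 and −0.0059 on average.

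Each order alone gave other calls. Order 1 called Psmd9 (0.50, limma adjusted p = 0.00149) and Psma3 (0.38, limma adjusted p = 0.00512) above 0 and Psmd13 (−0.26, limma adjusted p = 0.0191) below 0, where 10.6% of all genes were called above and 11.2% below 0. Order 2 called Pomp (−0.39, limma adjusted p = 0.0416) below 0 and no gene of the 24 above 0 (none had an unadjusted limma p under 0.05 there), where 1.8% of all genes were called above and 3.26% below 0. Psmd13 was below 0 in the mean of order 2 as well (−0.37) but was not called there (limma adjusted p = 0.106), and in treatment 3 its order 2 value was 0.0082.

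**Figure D4:**
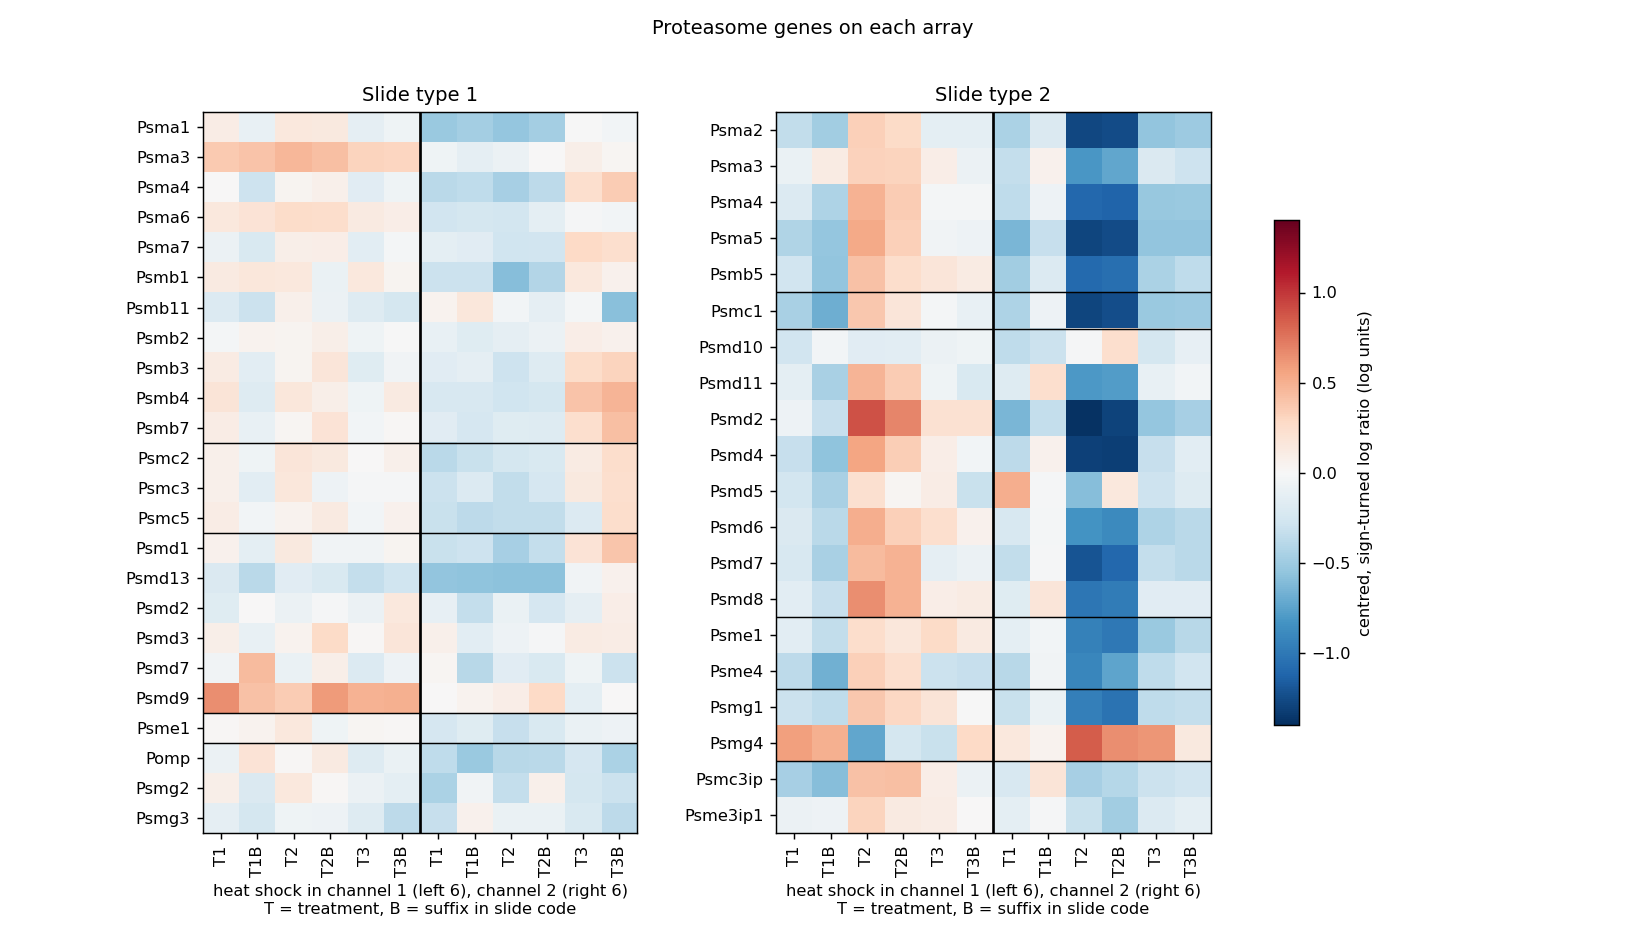
Centred, sign-turned log ratio (colour, log units) of every gene found by the symbol rule on each of the 12 arrays of slide types 1 and 2, with channel order 1 left and channel order 2 right of the thick line, and thin lines between the classes. On slide type 2 the 2 arrays of treatment 2 in channel order 2 are the darkest blue for the core, ATPase and most Psmd genes and the same treatment is red in order 1; on slide type 1 treatment 3 departs from treatments 1 and 2 in order 2.

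Treatment 3 stood apart on slide type 1. In order 2 the median of the core subunits was −0.20 in treatment 1, −0.24 in treatment 2 and 0.10 in treatment 3, and for the ATPases it was −0.34, −0.29 and 0.18. Psmb4 read −0.22, −0.26 and 0.44 there, and Psmb7 −0.20, −0.17 and 0.32. In order 1 the core medians were closer, at 0.0023, 0.10 and −0.035. The assembly genes did not share this turn: their order 2 medians were −0.25, −0.13 and −0.29. Over all genes the order 2 medians were −0.074, −0.073 and −0.066, but centring each array keeps these near 0, so they cannot show whether other genes turned. Over all probes, order 2 arrays of treatments 1 and 2 correlated with each other at 0.62 to 0.76. Those of treatment 3 correlated with them at 0.29 to 0.50, so treatment 3 stood apart beyond these genes.

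Set side by side, the classes kept no common order on both slide types. The assembly class holds Pomp and the Psmg genes, while the base chaperones Psmd5, Psmd9 and Psmd10 are counted with the Psmd genes. The medians on slide type 2 were −0.29 for 5 core subunits, −0.40 for the 1 ATPase, −0.16 for 8 Psmd genes, −0.27 for 2 activators and −0.015 for 2 assembly genes. Those on slide type 1, which like the median of all genes there move above 0 without centring, were −0.021 for 11 core subunits, −0.059 for 3 ATPases, −0.074 for 6 Psmd genes, −0.076 for the 1 activator and −0.17 for 3 assembly genes. The core thus had a low median on slide type 2 and one near 0 on slide type 1, and of its subunits only Psma3 and Psma4 were measured on both. The order difference had medians of 0.62, 0.56, 0.54, 0.41 and 0.072 for core, ATPase, Psmd, activator and assembly genes on slide type 2, and of 0.069, 0.20, 0.13, 0.22 and 0.19 on slide type 1. Differences between classes were not tested.

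Measured on both slide types were 5 genes, on different probes. Psma4 read −0.11 on slide type 1 and −0.29 on slide type 2, Psmd2 −0.082 and −0.26, Psmd7 −0.080 and −0.28, and Psme1 −0.076 and −0.23. These 4 lay below 0 on both and were called on slide type 2 alone, and the difference between slide types was not tested. Psma3 read 0.18 and −0.14 and lay on opposite sides in all 3 treatments, with a call on neither. The tables hold separately processed values, so these are levels of difference set side by side.

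The other genes of the ubiquitin-proteasome pathway were read from a list of 40. On slide type 2, where 12 were measured, 8 were called below 0 and 1 above 0, beside 31.9% and 18.5% of all genes. Nfe2l2 and Nfe2l1, both regulators of proteasome genes, read −0.34 ± 0.059 and −0.33 ± 0.060 (limma adjusted p = 0.000292 and 0.000405). The unfoldase Vcp, its cofactor Nsfl1c and the shuttle Rad23b read −0.33, −0.26 and −0.25. Txnl1, a proteasome-bound thioredoxin, read −0.27, the proteasome adaptor Ecpas −0.18, and Oaz1, which delivers ornithine decarboxylase to the proteasome without ubiquitin, −0.26. The peptide transporter Tap2 was called above 0 (0.18, limma adjusted p = 0.0357), although it read −0.026 in treatment 2. Sem1, a small lid subunit outside the symbol rule, read −0.13 and was not called (limma adjusted p = 0.0625), and Ufd1 and Zfand5 read 0.019 and 0.037.

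Nfe2l2 was the pathway gene on slide type 2 with values below 0 in both channel orders of every treatment, from −0.49 to −0.10, together with Ecpas, from −0.44 to −0.062. Vcp had opposite orders in treatments 2 and 3, at 0.66 and −1.45, and 0.195 and −0.66. The subunit and assembly genes on that slide type had no gene below 0 in all 6 combinations of order and treatment. Of all 4075 genes there, only 197 were below 0 in all 6.

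On slide type 1, where 14 of the pathway genes were measured, 3 were called above 0 and 0 below 0 with limma (1 had an unadjusted p under 0.05, Nfe2l1 at −0.15), beside 5.73% and 5.65% of all genes. Vcp read 0.70, 0.95 and 1.25 (mean 0.97 ± 0.090, limma adjusted p = 0.000127), with both channel orders above 0 in every treatment. Ufd1, a Vcp cofactor, read 0.20, 0.44 and 0.43 (mean 0.36 ± 0.064, limma adjusted p = 0.00612). Uchl5, a deubiquitinase bound to the cap, averaged 0.24 ± 0.057 (limma adjusted p = 0.0260). Its 2 probes gave −0.055 and 0.53 and so disagreed. Nploc4, the partner of Ufd1, and Zfand2a, a stress-inducible proteasome-binding protein, read 0.20 and 0.19 and missed the threshold (limma adjusted p = 0.0518 and 0.0585). Vcp, at 0.97 here and −0.33 on slide type 2, was on opposite sides on the 2 slide types in every treatment.

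**Figure D5:**
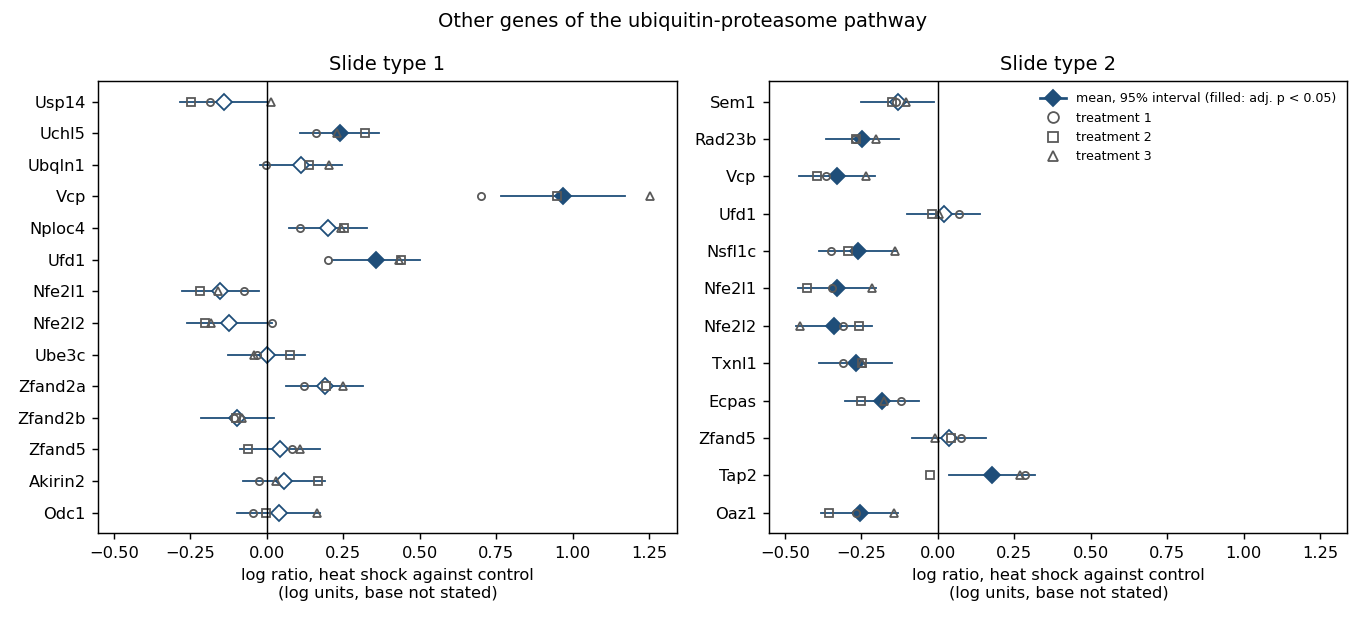
Log ratio of heat shock against control (horizontal axis, log units of unstated base) for the measured pathway genes outside the symbol rule on each slide type, with means of 3 treatments and 95% intervals (diamonds, filled where the limma adjusted p was under 0.05) and the treatments as small symbols. Vcp is far above 0 on slide type 1 and below 0 on slide type 2; under the opposite sign convention both panels would be mirrored.

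Markers of tissues that a whole embryo can hold in unequal amounts were read beside these values, as ratios only. Of 10 erythroid markers 1 was measured on slide type 1 and 4 on slide type 2, and none was called with limma (1, Hbb-y at −0.14, had an unadjusted p under 0.05). Of 9 yolk sac endoderm markers 4 were measured, on slide type 1, from −0.067 to 0.039, none called and none with an unadjusted p under 0.05. Of 9 neural markers 3 were measured. Tubb3 on slide type 1 (−0.21, limma adjusted p = 0.0359) and Gap43 on slide type 2 (−0.29, limma adjusted p = 0.0015) were called below 0, beside 5.65% and 31.9% of all genes. Nes on slide type 1 read −0.11 and was not called. Of 9 blood immune markers 3 were measured. Fcer1g on slide type 2 was called above 0 (0.22, limma adjusted p = 0.00575), beside 18.5% of all genes there. Laptm5 and Lyz2 on slide type 1 read −0.024 and −0.026 and were not called. None of 9 heart muscle markers was among the genes on 1-symbol probes. The part of these tissues in the proteasome values was not tested.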

How the data were processed

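Total RNA of heat-shocked and control mouse embryos was measured on 24 arrays with 2 channels, 12 per slide type. The values are the authors' deposited log ratios, treated as a score because no source used here gives their base, numerator, background correction or normalization. No spot intensities were used, so dim spots could not be set apart. Each slide type has 7680 probes, of which 4749 and 4935 carry 1 gene symbol in the platform annotation, 227 and 275 several and 2704 and 2470 none.

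Groups came from the labels' source names of each channel. Arrays were centred on the median of all their probes, the sign was turned where heat-shocked RNA was in channel 2, the 2 arrays of a channel order were averaged (with and without a suffix B whose meaning is not stated), and then the 2 orders. A gene's value is the mean of its 1-symbol probes. The 3 treatments were the replicates in limma 3.58.1 (lmFit and eBayes on an intercept, R 4.3.3), with Benjamini-Hochberg adjustment over all genes of a slide type. The difference between channel orders was tested the same way, on within-treatment differences, since both orders carry the same treatment number and slide codes in the titles. Deviations of same-numbered orders correlated at 0.34, −0.13 and −0.04 on slide type 1 and at −0.85, −0.85 and −0.49 on slide type 2. In simulated data of the same spread the fit recovered most of the planted shifts of the mean, but called none of the order differences planted on slide type 2. All planted shifts were larger in size than the mean of any member, so the recovery of shifts as small as the members' was not tested. The number of treatments limits the precision.

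All members of the symbol rule are named. Values by treatment or array are given for called genes and catalytic subunits. The members, the pathway, heat response and marker lists and the motifs were chosen with earlier results of these data known. Other settings covered centring, spread, channel order, suffix, probe joining, a random block, a robust prior and leaving out each treatment. A running median of 401 probes was chosen after seeing the data. Figures were drawn with matplotlib 3.10.9.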

Additional observations from a re-analysis of the deposited data

Results flagged for a closer look

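On slide type 1 the difference between channel orders was past limma's threshold for 3 genes: Psmd9 (0.45), Psma3 (0.40) and Pomp (0.38), each higher with heat-shocked RNA in channel 1. Psma6 had all 6 arrays of channel order 1 above 0 (0.090 to 0.26) and all 6 of channel order 2 below 0 (−0.26 to −0.021), with a mean difference of 0.34 (limma adjusted p = 0.0723). Its mean over both orders was 0.0080.

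Psmc5 on slide type 1 had 1 array far from the others of its channel order, the array with the suffix in treatment 3 with heat-shocked RNA in channel 2. It read 0.24, against −0.36 to −0.19 on the other 5 arrays. Of 92 groups of 6 arrays examined in this way 1 stood out, 1.09%. The groups include those of Psmc3ip, Psme3ip1 and the median of the subunit and assembly genes. A chance rate of about 1 in 20 holds for independent values. Arrays of one treatment share RNA, so the 1.09% cannot be set against that rate.

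Psma3 (0.18 on slide type 1 and −0.14 on slide type 2) and Vcp (0.97 and −0.33) lay on opposite sides of 0 on the slide types in every treatment. The difference between slide types was not tested.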

How the results depend on the processing

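The gene values of heat shock against control were recomputed under 12 other settings and without each of the 3 treatments. Psmc3ip and Psme3ip1 are included in the numbers of recomputed values and order differences that follow. Of 660 recomputed values 520 kept their direction and side of the threshold, 73 lost a call, 12 gained one, 46 not called in either fit changed sign, and 9 called values turned sign. Of 308 recomputed order differences the first 4 of these numbers were 233, 7, 22 and 46. A value that kept its sign and side may still have moved in size. Pomp on slide type 1 read 0.11 without centring. Channel order 1 alone gave, for slide type 2, 0.028 for Psma4, 0.021 for Psmb5, 0.27 for Psmd2, 0.011 for Psmd4, 0.093 for Psmd6, 0.0060 for Psmd7, 0.051 for Psme1 and 0.030 for Psmg1.

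Counts of called subunit and assembly genes on slide type 2, 13 below and 1 above 0, became 0 and 0 without centring and in either channel order alone, and 4 and 0 with arrays scaled to a common spread. Arrays without the suffix gave 0 above 0. Limma's unadjusted p was under 0.05 for 3 below and 1 above 0 without centring, 0 and 0 in order 1, and 12 and 0 in order 2. Their median of −0.25 was 0.012 in order 1, −0.51 in order 2 and −0.17 without centring, while that of all genes went from −0.049 to 0.034. Of all genes, 1299 called below and 753 above 0 became 65 and 76 without centring, 861 and 1249 when centred on 1-symbol probes, 539 and 211 with a common spread, 6 and 44 in order 1, and 11 and 13 in order 2.

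On slide type 1, 2 genes called below and 1 above 0 became 0 and 2 without centring, 1 and 2 with 1-symbol centring, a common spread, order 1 alone or the running median, 1 and 0 in order 2, and 3 and 2 with the treatment as a random block. The count below 0 was 1 in arrays with or without the suffix and with the first probe of each gene. Without centring the median of all genes moved from −0.038 to 0.27 and that of the members from −0.070 to 0.23, so both moved by a like amount. Of all genes, 217 called below and 220 above 0 became 5 below without centring, 119 below with 1-symbol centring, 431 and 408 in order 1, 125 and 69 in order 2, 75 and 141 in arrays with the suffix, and 342 below with the random block.

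The order difference on slide type 1, 3 members and 607 of all genes, became 16 and 2253 without centring and 4 and 768 with no replicate block, that is, with the orders unpaired. On slide type 2 it was 0 and 0 with and without the block, and 42 of all genes with a common spread.

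Without 1 treatment each, members called on slide type 2 were 11 to 13 below and 0 to 1 above 0, and on slide type 1 0 to 2 below and 0 to 1 above 0. All genes called ranged from 934 to 1226 below and 293 to 983 above 0 on slide type 2, and from 53 to 245 below and 125 to 195 above 0 on slide type 1. For the order difference the ranges were 0 to 10 members and 175 to 1344 genes on slide type 1, and 0 to 1 members and 0 to 522 genes on slide type 2. The cause of these changes was not tested. Signal over background could not be read from ratios.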
